A study of Mus musculus with 2 samples.

Results

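The Slc25 family encodes the mitochondrial carriers, membrane proteins that move nucleotides, phosphate, carboxylates, amino acids and cofactors across the mitochondrial inner membrane. All genes whose mouse symbol starts with Slc25a were taken, whatever their level, which gave 45 of the 17215 genes listed. Their messenger RNA was measured by RNA sequencing of total RNA from MC3T3-E1 cells, a mouse pre-osteoblast line from newborn calvaria, cultured in medium with formaldehyde at 300 µM or at 100 µM. The labels name no genetic change in the line, both groups were exposed to formaldehyde, and the length of exposure is not given. There was 1 library per dose and untreated cells were not analysed here, so the values describe 2 libraries and no p-value was computed. In bulk RNA, fewer cells that express a gene and less RNA per cell cannot be told apart.

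Mitochondria make most of their ATP inside the inner membrane, so ATP must leave, and ADP and phosphate must enter, through carriers of this family. Other members feed carbon, amino acids, folate, iron, nucleotides and cofactors to the enzymes of the matrix, and a few sit in other membranes, such as that of the peroxisome or the mitochondrial outer membrane. Osteoblasts draw on oxidative phosphorylation and on amino acid supply when they grow and lay down collagen.

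Depth was estimated at 19400000 fragments for 300 µM and 18500000 for 100 µM. Levels are in FPKM, which divides a gene's fragments by transcript length and by library depth, so genes can be set side by side within a library. Osteoblast marker genes were present: Col1a1 stood at 1714 and 2065 FPKM, Runx2 at 3.60 and 7.99 FPKM and Sp7 at 9.47 and 7.21 FPKM, at 300 and 100 µM. Dlx5, another, was lower at 300 µM, with 7.04 FPKM, against 32.9 FPKM at 100 µM, while Alpl was near 1 FPKM and Bglap was at 0.49 FPKM at 300 µM and listed at 0 at 100 µM. Of the 5 adipocyte markers listed none passed 0.55 FPKM, and both liver markers listed were at 0 in both libraries. Among 9 macrophage and blood markers the highest was Lyz2, at 26.5 FPKM at 300 µM, against 13.2 FPKM at 100 µM, while Cd68 stood at 0.77 FPKM at 300 µM, against 2.57 FPKM at 100 µM, Ptprc at 0.05 and 0.03 FPKM and Adgre1 at 0. Among 5 muscle markers it was Acta1, at 10.1 FPKM at 300 µM, against 3.29 FPKM at 100 µM, with Myog at 0. The part of such cells in the carrier values was not tested.

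Of the carriers expressed at a level that allows a comparison, most lay within 2-fold and about as many were lower as among all genes. Genes whose mean over both libraries reached 1 FPKM were compared by the log2 ratio, log2 of (FPKM + 1) at 300 µM over (FPKM + 1) at 100 µM. Of the 35 carriers compared, 12 (34.3%) were at least 2-fold lower at 300 µM and 1 (2.86%) was at least 2-fold higher, while 22 lay within 2-fold. Among all 10123 genes compared, 29.8% were lower by that size and 6.09% were higher, so both shares of the family were near the background. Log2 ratios were below 0 in 21 of 35 carriers, against 59.5% of all genes compared. The median log2 ratio was -0.23 for the carriers and -0.30 for all genes compared. After all ratios were centred on that median gene, 4 carriers were higher by at least 2-fold and 10 were lower, against a background of 14.5% higher and 22.3% lower.

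The substrate groups had different sums. The ADP/ATP carriers had a summed FPKM ratio of 1.30, the di- and tricarboxylate carriers 1.88 and the glutathione carriers 1.40. The amino acid carriers had 0.684, the carriers of nucleotides and cofactors 0.678 and the iron carriers 0.469. Summed over all 45 members, carrier messages came to 1752 FPKM at 300 µM, against 1545 FPKM at 100 µM, a ratio of 1.13. That ratio and those of the groups depend on the scale, because total FPKM was also larger at 300 µM, at 691521 FPKM against 532944 FPKM. The total thus had about the same ratio as the ADP/ATP carriers. All carriers made up 0.253% of the total at 300 µM, against 0.290% at 100 µM.

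**Figure D1:**
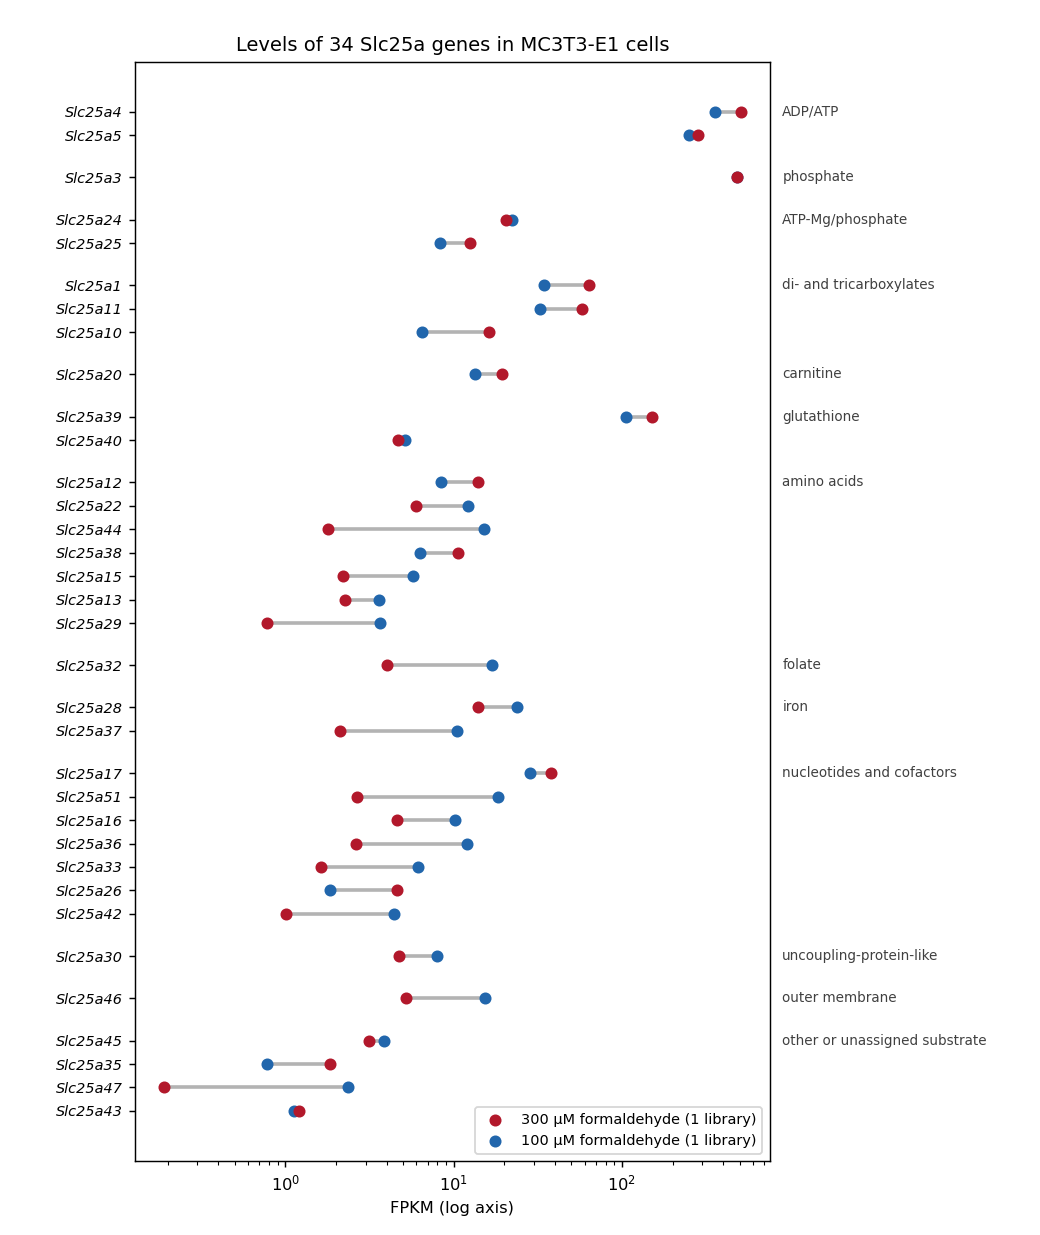
FPKM (log axis) of 34 of the 35 Slc25a genes compared, grouped by substrate, with red points for the library at 300 µM and blue points for that at 100 µM formaldehyde. Slc25a3, Slc25a4 and Slc25a5 lie highest at both doses, and the widest gaps towards lower values at 300 µM are those of Slc25a47, Slc25a44 and Slc25a51.

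**Figure D2:**
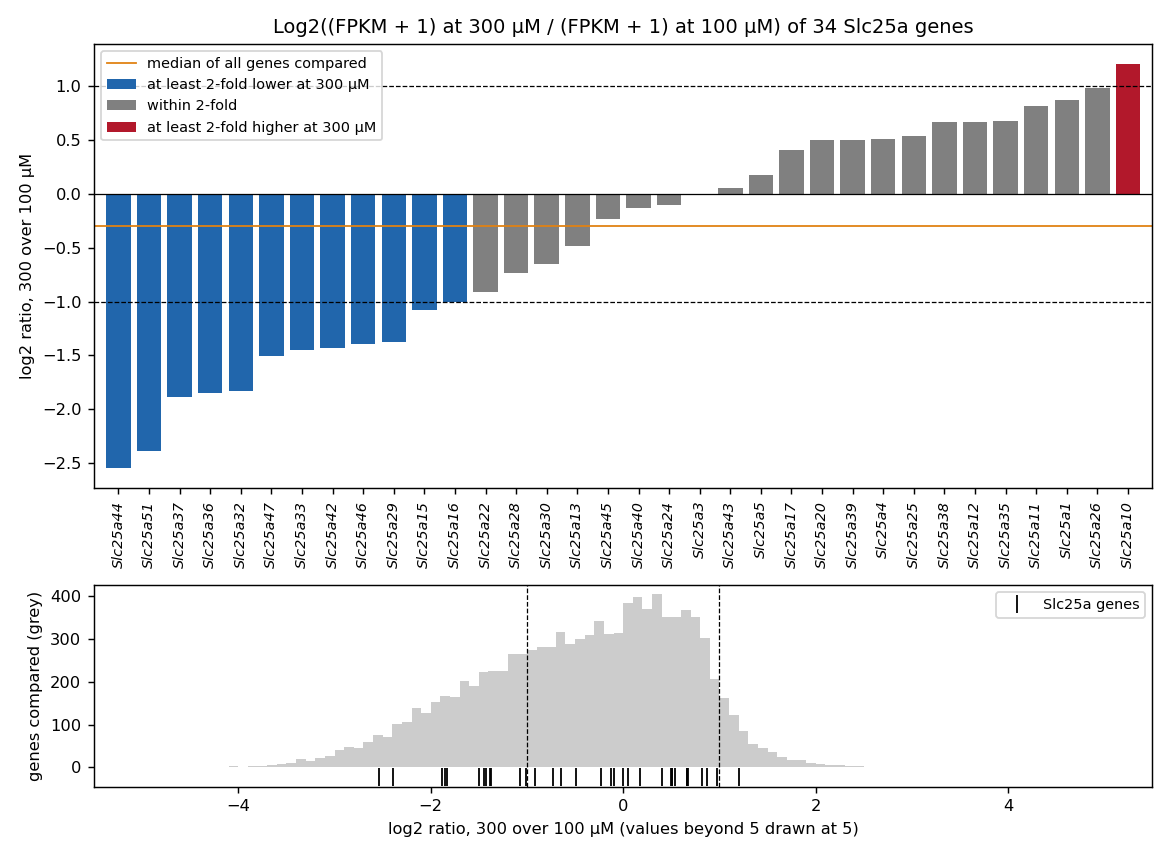
Log2 ratios of 34 of the 35 Slc25a genes in order (top; blue, at least 2-fold lower at 300 µM; red, at least 2-fold higher; grey, within 2-fold) and the distribution of all 10123 genes compared, with the Slc25a genes as ticks (bottom). The carriers run from -2.54 for Slc25a44 to 1.20 for Slc25a10, inside the range of all genes, and the orange line marks the median gene at -0.30.

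The adenine nucleotide translocases, which exchange ADP for ATP, were the most abundant carriers together with the phosphate carrier. Slc25a4 (ANT1), the isoform typical of heart and muscle, stood at 508 FPKM at 300 µM, against 356 FPKM at 100 µM. Its ratio of 1.43 had an exact 95% counting interval of 1.40 to 1.46, which, like all intervals here, rests on estimated reads and covers counting error only. Slc25a5 (ANT2), the isoform of proliferating cells, stood at 282 FPKM at 300 µM, against 250 FPKM at 100 µM, a log2 ratio of 0.17 that turns to -0.20 when both libraries are scaled to the same FPKM sum. The pair together held 45.1% of the family's summed FPKM at 300 µM and 39.2% at 100 µM. Within the pair, Slc25a5 made up 35.6% at 300 µM and 41.2% at 100 µM. The Slc25a5 value is uncertain, since 46.6% of the 50-base words of its transcript also occur in transcripts of 9 other genes, Gm5560 foremost. A further ADP/ATP carrier of the testis, Slc25a31, was not analysed here.

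Slc25a3, the phosphate carrier that supplies ATP synthase, was level between the doses, at 482 FPKM at 300 µM, against 483 FPKM at 100 µM. Its log2 ratio of -0.00 becomes 0.30 after centring on the median gene. Slc25a24 and Slc25a25 exchange ATP-Mg for phosphate under control of calcium and so set the size of the matrix adenine nucleotide pool. Slc25a24 stood at 20.6 FPKM at 300 µM, against 22.1 FPKM at 100 µM, a log2 ratio of -0.10 that turns to 0.20 after centring. Slc25a25 stood at 12.4 FPKM at 300 µM, against 8.24 FPKM at 100 µM. Their summed level was therefore similar at the doses, 33.01 FPKM at 300 µM, against 30.36 FPKM at 100 µM, but Slc25a25 made up 37.7% of it at 300 µM and 27.1% at 100 µM.

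The carriers of di- and tricarboxylates formed the group with the largest ratio towards 300 µM. Slc25a10, which exchanges malate or succinate for phosphate, stood at 16.2 FPKM at 300 µM, against 6.46 FPKM at 100 µM, a ratio of 2.50 with a counting interval of 2.16 to 2.92. It was the only carrier compared with a log2 ratio of at least 1, at 1.20, and it lay at percentile 96.7 of all genes compared, though it falls below 1 at equal FPKM sums (0.89), with a pseudocount of 5 (0.89) and with the length and GC trend removed (0.94). Slc25a1, the citrate carrier that exports acetyl units for fatty acid and sterol synthesis, stood at 63.7 FPKM at 300 µM, against 34.3 FPKM at 100 µM. Slc25a11, the oxoglutarate and malate carrier, stood at 58.1 FPKM at 300 µM, against 32.6 FPKM at 100 µM. Their log2 ratios of 0.87 and 0.82 pass 1 after centring, at 1.17 and 1.11, and are 0.45 and 0.39 once the trend of all genes with transcript length and GC content is removed. The remaining member of the group, Slc25a21, was at 0.02 and 0.05 FPKM at 300 and 100 µM. Of the words of the Slc25a10 transcript 9.07% lie antisense to Gm11788, and whether the authors counted by strand is not given in the sources used here.

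Other carriers of fuel and redox compounds mostly had higher values at 300 µM, all within 2-fold. Slc25a20, which brings acylcarnitines in for fatty acid oxidation, stood at 19.4 FPKM at 300 µM, against 13.5 FPKM at 100 µM. Slc25a39, needed for glutathione import into mitochondria, stood at 151 FPKM at 300 µM, against 106 FPKM at 100 µM, and ranked 4 in the family at both doses. Glutathione binds formaldehyde and is the cofactor of its main oxidising enzyme. The paralog Slc25a40 was far less abundant, at 4.64 FPKM at 300 µM, against 5.17 FPKM at 100 µM, so that Slc25a39 made up 97.0% of the pair at 300 µM and 95.3% at 100 µM. The small negative log2 ratio of Slc25a40, -0.13, turns positive after centring (0.17), and 10.3% of its words occur in Gm5066.

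Amino acid carriers had ratios on both sides of 1. Of the 9 listed, 7 were compared, of which 3 were at least 2-fold lower, 0 were higher and 4 lay within 2-fold, with a group median of -0.91, against 29.8% lower among all genes. After centring 2 of 7 were lower, against 22.3% of all genes. The lowest log2 ratio of the whole family, -2.54, was that of Slc25a44, which carries branched-chain amino acids: 1.78 FPKM at 300 µM, against 15.2 FPKM at 100 µM. The FPKM ratio of 0.117 had a counting interval of 0.0968 to 0.142, from about 124 reads at 300 µM and 1006 reads at 100 µM, and lay at percentile 3.54 of all genes compared. Slc25a29, a carrier of basic amino acids, stood at 0.78 FPKM at 300 µM, against 3.63 FPKM at 100 µM (log2 ratio -1.38). Slc25a15, the ornithine carrier of the urea cycle and polyamine routes, stood at 2.19 FPKM at 300 µM, against 5.73 FPKM at 100 µM, a log2 ratio of -1.08 that is -0.78 after centring. Slc25a22, a glutamate carrier, stood at 6.01 FPKM at 300 µM, against 12.2 FPKM at 100 µM, where the pseudocount of 1 brings a ratio of 0.493 to a log2 ratio of -0.91.

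Slc25a12 and Slc25a38 had higher values at 300 µM. Slc25a12, a calcium-regulated aspartate and glutamate carrier of the malate-aspartate shuttle, stood at 14.0 FPKM at 300 µM, against 8.45 FPKM at 100 µM. Its paralog Slc25a13 stood at 2.27 FPKM at 300 µM, against 3.58 FPKM at 100 µM, so Slc25a12 made up 86.1% of the pair at 300 µM and 70.2% at 100 µM. Slc25a38, the glycine importer that feeds heme synthesis, stood at 10.6 FPKM at 300 µM, against 6.28 FPKM at 100 µM. Both Slc25a12 and Slc25a38 had log2 ratios of 0.67, from FPKM ratios of 1.66 for Slc25a12 and 1.68 for Slc25a38. The glutamate carrier Slc25a18 and the ornithine carrier Slc25a2 stayed below 0.1 FPKM in both libraries.

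The folate carrier was lower at 300 µM. Slc25a32, which brings folate and flavin cofactor into the matrix, stood at 4.03 FPKM at 300 µM, against 16.9 FPKM at 100 µM. The ratio of 0.238 had a counting interval of 0.215 to 0.264, and the log2 ratio was -1.83, or -1.31 with the length and GC trend removed. Enzymes that use folate in the same compartment had positive log2 ratios in 7 of 7 genes compared, with 1 at least 2-fold higher (2 after centring) and a median of 0.45. Among all 10123 genes compared, 4089 had positive log2 ratios and 6.09% were at least 2-fold higher (14.5% after centring). Mthfd1l, which releases formate, was the enzyme gene at least 2-fold higher, at 26.0 FPKM at 300 µM, against 10.7 FPKM at 100 µM. Mthfd2l, a methylenetetrahydrofolate dehydrogenase, stood at 7.70 FPKM at 300 µM, against 4.10 FPKM at 100 µM. The difference between carrier and enzymes was not tested.

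Both iron carriers had lower values at 300 µM, the mitoferrin 1 gene more so. Slc25a37 (mitoferrin 1), best known for iron supply in red cell precursors, stood at 2.11 FPKM at 300 µM, against 10.5 FPKM at 100 µM, with a log2 ratio of -1.88. Of its words, 8.07% occur in Gm16867. Slc25a28 (mitoferrin 2), the more widely expressed paralog, stood at 14.0 FPKM at 300 µM, against 23.9 FPKM at 100 µM, within 2-fold at a log2 ratio of -0.73. The counting intervals of their FPKM ratios, 0.170 to 0.238 for Slc25a37 and 0.517 to 0.663 for Slc25a28, did not overlap. These intervals cover counting error only and not the variation between cultures. Together the mitoferrins came to 16.1 FPKM at 300 µM, against 34.4 FPKM at 100 µM, and Slc25a28 made up 86.9% of the pair at 300 µM and 69.5% at 100 µM. Red cell markers were near 0: Hbb-bs was listed at 0 in both libraries, Hba-a1 at 0.09 and 0 FPKM and Alas2 at 0.03 and 0.27 FPKM, at 300 and 100 µM.

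Genes of iron-sulfur cluster and heme synthesis, which use the imported iron, had ratios on both sides of 1. Of 14 compared, 3 were higher by at least 2-fold (6.09% of all genes) and 2 were lower (29.8%), with a median of 0.47. After centring 5 were higher (14.5% of all genes) and 1 lower (22.3%). Among the higher genes, the cochaperone gene Hscb had a log2 ratio of 1.27. Lyrm4, also higher, stood at 3.51 FPKM at 300 µM, against 1.23 FPKM at 100 µM, and was named after its value was seen. Alas1, the first enzyme of heme synthesis, stood at 12.3 FPKM at 300 µM, against 38.3 FPKM at 100 µM, and Isca1, a cluster assembly gene, had -1.06, or -0.76 after centring.

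**Figure D3:**
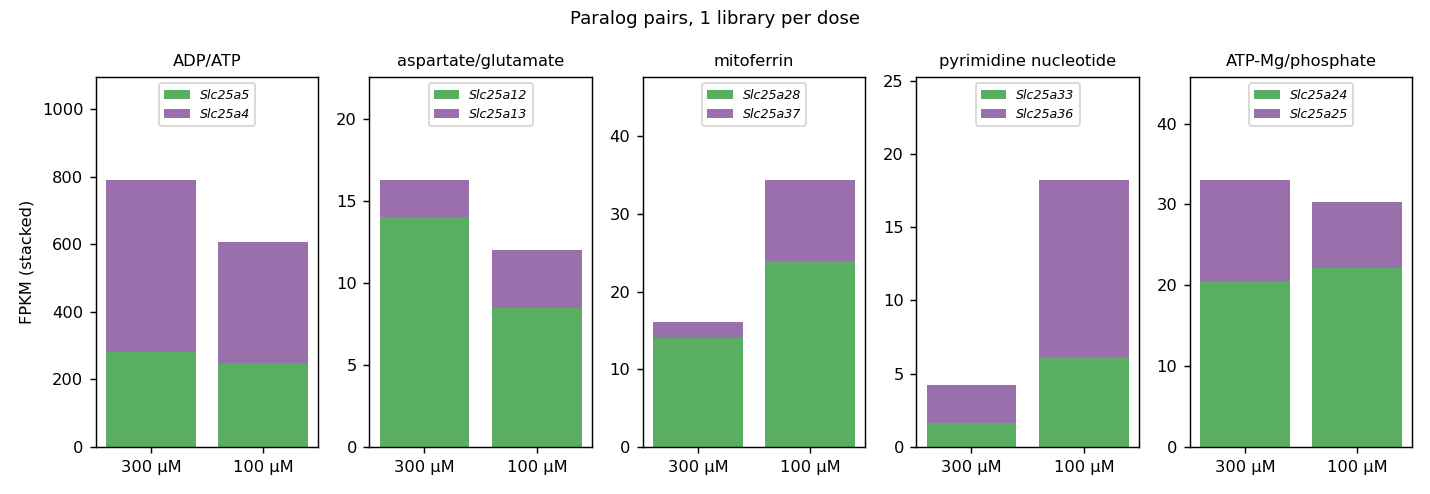
Stacked FPKM of 5 pairs of related carriers in the library at 300 µM (left bar) and that at 100 µM (right bar), each panel with its own axis from 0. The aspartate/glutamate pair shifted towards Slc25a12 and the mitoferrin pair towards Slc25a28 at 300 µM, while both pyrimidine nucleotide carriers were lower there.

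Carriers of nucleotides and cofactors were the largest group of lower genes. Of the 8 compared, 5 were lower by at least 2-fold and 0 higher, with a group median of -1.22, against 29.8% lower and 6.09% higher among all genes. After centring 4 were lower (22.3% of all genes) and 1, Slc25a26, was higher (14.5%). Slc25a51, the carrier of NAD, stood at 2.67 FPKM at 300 µM, against 18.2 FPKM at 100 µM, a ratio of 0.146 with a counting interval of 0.127 to 0.168, at percentile 4.65 of all genes compared. Slc25a36 and Slc25a33, which both carry pyrimidine nucleotides for mitochondrial DNA and RNA, were lower together. Slc25a36 stood at 2.62 FPKM at 300 µM, against 12.1 FPKM at 100 µM, and Slc25a33 at 1.63 FPKM at 300 µM, against 6.16 FPKM at 100 µM. The pair summed to 4.25 FPKM at 300 µM, against 18.2 FPKM at 100 µM, with the share of Slc25a36 at 61.7% at 300 µM and 66.2% at 100 µM. Of the words of Slc25a33 12.6% lie antisense to Gm13068, and 11.8% of those of Slc25a36 occur in Gm13217.

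The coenzyme A carrier Slc25a42 and the related Slc25a16 were at least 2-fold lower as well. Slc25a42 stood at 1.01 FPKM at 300 µM, against 4.42 FPKM at 100 µM. Slc25a16 stood at 4.58 FPKM at 300 µM, against 10.2 FPKM at 100 µM and lay just past the bound, at a log2 ratio of -1.01, which is -0.71 after centring. Slc25a17, a cofactor carrier of peroxisomes, stood at 38.04 FPKM at 300 µM, against 28.5 FPKM at 100 µM. Slc25a26, the S-adenosylmethionine carrier, had the highest ratio of the group, at 4.62 FPKM at 300 µM, against 1.85 FPKM at 100 µM. Its FPKM ratio was 2.50 with a counting interval of 1.86 to 3.35, and its log2 ratio with the pseudocount was 0.98. Part of its transcript (5.07% of words) lies antisense to Lrig1.

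Promoters of the pyrimidine nucleotide carriers are shown because both genes were lower at 300 µM and both hold the E-box CACGTG, the motif bound by MYC, MAX and related factors. The windows run from 250 bases before to 50 bases after a RefSeq start (GRCm38.p6) and are printed in the direction of the gene, with the motif in capitals. The windows of Slc25a15, also at least 2-fold lower, and of Slc25a1, which had a positive log2 ratio, are given beside them. Slc25a15 has 2 annotated starts, and the window of the other holds no CACGTG.

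Slc25a33 promoter, chr4:149774218-149774517, minus strand: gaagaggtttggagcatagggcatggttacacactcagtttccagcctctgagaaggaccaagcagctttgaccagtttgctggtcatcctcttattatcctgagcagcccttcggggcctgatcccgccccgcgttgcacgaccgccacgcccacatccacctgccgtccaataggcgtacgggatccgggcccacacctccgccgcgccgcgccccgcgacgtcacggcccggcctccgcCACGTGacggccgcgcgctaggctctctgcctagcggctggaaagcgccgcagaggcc

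Slc25a36 promoter, chr9:97110992-97111291, minus strand: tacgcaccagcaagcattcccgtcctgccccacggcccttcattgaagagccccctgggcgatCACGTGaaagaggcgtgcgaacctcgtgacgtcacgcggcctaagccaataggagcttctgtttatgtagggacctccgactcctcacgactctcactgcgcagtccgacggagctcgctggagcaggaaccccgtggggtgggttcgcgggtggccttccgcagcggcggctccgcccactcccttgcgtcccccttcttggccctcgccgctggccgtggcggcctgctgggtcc

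Slc25a15 promoter, chr8:22398228-22398527, minus strand: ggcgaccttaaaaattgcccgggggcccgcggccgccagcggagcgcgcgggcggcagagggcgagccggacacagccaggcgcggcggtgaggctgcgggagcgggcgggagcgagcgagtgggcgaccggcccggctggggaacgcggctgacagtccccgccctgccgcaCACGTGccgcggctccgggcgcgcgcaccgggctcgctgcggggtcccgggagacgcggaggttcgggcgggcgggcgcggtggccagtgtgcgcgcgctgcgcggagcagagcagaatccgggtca

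Slc25a1 promoter, chr16:17928170-17928469, minus strand: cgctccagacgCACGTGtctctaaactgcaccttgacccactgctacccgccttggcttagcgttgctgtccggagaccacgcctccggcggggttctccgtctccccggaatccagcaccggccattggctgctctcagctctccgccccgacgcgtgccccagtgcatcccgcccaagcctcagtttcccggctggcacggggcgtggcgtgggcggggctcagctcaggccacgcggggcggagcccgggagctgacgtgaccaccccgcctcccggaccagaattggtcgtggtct

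Relative to the start, the motif began at base -8 in Slc25a33, -187 in Slc25a36, -77 in Slc25a15 and -239 in Slc25a1. Promoter windows were at hand for 35 of the 45 members, and CACGTG, which reads alike on both strands, occurred in those of 6 (17.1%), against 10.4% of 13642 listed genes with a window. It was found in 3 of 7 carriers that were at least 2-fold lower, in 2 of 19 within 2-fold and in Slc25a14, below the level compared. Its shares among all lower genes and all genes within 2-fold were not computed, and a link to the lower values was not tested. Of the 6 carriers with the motif, Slc25a1 had a positive log2 ratio, 0.87, and the others had negative ones. Log2 ratios were below 0 in 59.5% of all genes compared. Of the negative ratios, that of Slc25a13 was -0.49, within 2-fold, and that of Slc25a14 rests on values below the level compared. The lower carriers Slc25a32, Slc25a37, Slc25a44, Slc25a46 and Slc25a51 had no window. They include the lowest log2 ratios of the family, those of Slc25a44 (-2.54), Slc25a51 (-2.39) and Slc25a37 (-1.88). On either strand, the SP1 motif GGGCGG was found in 29 of 35 carrier genes, against 59.5% of genes, and the NF-Y motif CCAAT in 19, against 42.3%. By the same split, the SP1 motif was in 6 of 7 lower carriers and 17 of 19 within 2-fold. The NF-Y motif was in 5 of 7 and 9 of 19. Motifs of NRF1, of ATF4 with C/EBP and of heat shock factor were also sought and found in 1 (Slc25a3), 0 and 0 carriers, against 8.91%, 3.28% and 0.557% of genes. A match describes these letters and is not evidence of binding.

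Slc25a46, which sits in the outer membrane and acts on mitochondrial shape, stood at 5.22 FPKM at 300 µM, against 15.3 FPKM at 100 µM, with a log2 ratio of -1.39. Of its words, 7.52% lie antisense to another gene. Slc25a30, related to the uncoupling proteins, stood at 4.72 FPKM at 300 µM, against 7.97 FPKM at 100 µM, within 2-fold. Slc25a47, a carrier mostly of liver, had the smallest FPKM ratio, at 0.19 FPKM at 300 µM, against 2.37 FPKM at 100 µM. It rests on about 6 and 69 reads, and the ratio of 0.0802 had a counting interval of 0.0294 to 0.190. The substrates of Slc25a35, Slc25a43 and Slc25a45 are less settled. Slc25a35 stood at 1.84 FPKM at 300 µM, against 0.78 FPKM at 100 µM, where the pseudocount of 1 brings a ratio of 2.36 (counting interval 1.49 to 3.92) to a log2 ratio of 0.67, and a pseudocount of 0.1 to 1.14. Slc25a43 and Slc25a45 had log2 ratios of 0.05 and -0.23, that of Slc25a43 negative (-0.18) at equal FPKM sums and that of Slc25a45 positive (0.07) after centring.

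The remaining 10 members were below the level compared, and none passed 0.54 FPKM at 300 µM or 1.12 FPKM at 100 µM. The highest were Slc25a14, at 0.54 FPKM at 300 µM, against 1.12 FPKM at 100 µM, Slc25a27, at 0.19 FPKM at 300 µM, against 0.96 FPKM at 100 µM, and Slc25a53, at 0.30 FPKM at 300 µM, against 0.34 FPKM at 100 µM. The others (Slc25a2, Slc25a18, Slc25a21, Slc25a23, Slc25a34, Slc25a48 and Slc25a54) stood at or below 0.08 FPKM in both libraries. Of these, 4 were listed at 0 in a library. For Slc25a48 a count of 0 at 300 µM allows up to 0.0458 FPKM, which lies above its 0.04 FPKM at 100 µM, so no difference was detectable at this depth.

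Carriers at least 2-fold lower at 300 µM had longer transcripts and 3' UTRs at the median than those within 2-fold, and similar coding lengths. The 12 carriers at least 2-fold lower had a median annotated 3' UTR of 2256 bases (596 to 4739), against 744 bases for the 22 within 2-fold, while the median coding length was 951 bases against 962. The same held among all genes compared for the 3' UTR, with medians of 1650 bases in lower genes and 892 bases within 2-fold, and there the coding length differed too (1599 against 1248 bases). Of the 12 carriers in the class of longest 3' UTRs (over 1684 bases), when all genes compared are cut into 3 classes of like size, 9 were at least 2-fold lower, against 44.1% of all genes in that class. In the middle class 2 of 14 carriers were lower (29.2% of all genes), and in the shortest (up to 612 bases) 1 of 9 (16.4%). Slc25a12 was an exception, with a 3' UTR of 4092 bases and a log2 ratio of 0.67. Across the 35 carriers the Spearman correlation of log2 ratio and 3' UTR length was -0.49, and across 10093 genes -0.35, as a description over genes of the same 2 libraries. With the length of the whole transcript it was -0.47 across the carriers and -0.41 across all genes. The median transcript was 3504 bases in the lower carriers and 1875 bases in those within 2-fold, against 3953 and 2709 bases among all genes compared.

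**Figure D4:**
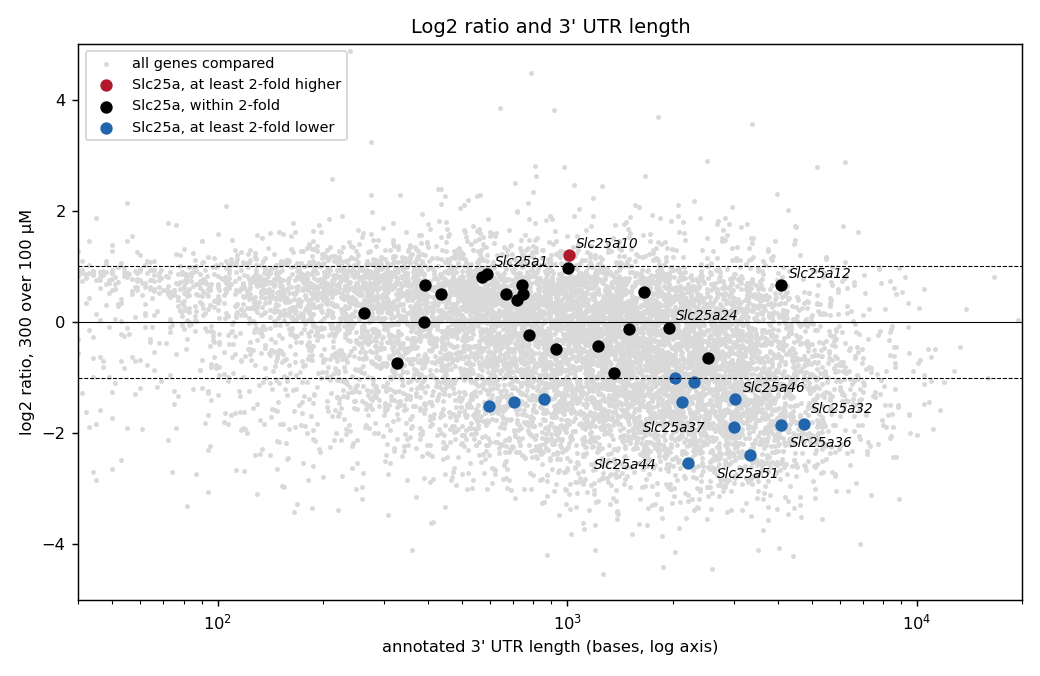
Log2 ratio against annotated 3' UTR length (log axis) for all genes compared (grey) and Slc25a genes (red, at least 2-fold higher at 300 µM; black, within 2-fold; blue, at least 2-fold lower). Of 12 carriers with a 3' UTR over 1684 bases, 9 lie below the lower dashed line; Slc25a43, with no annotated 3' UTR, and genes outside the axes are not drawn.

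The AU-rich pentamer ATTTA, a mark of short-lived messages, had a similar density in both classes. It occurred 1.79 times per kb of 3' UTR in the 12 lower carriers and 1.97 times per kb in the 22 within 2-fold, against 1.91 and 1.74 times per kb in the same classes of all genes. With trends in length and GC content taken out, the counts were again 12 lower and 1 higher, with partly different genes. The shares of all genes lower or higher on that scale were not computed. Slc25a28 (-1.18) then passed the bound and Slc25a16 (-0.91) did not, and Slc25a12 (1.11) was the higher gene, with Slc25a10 at 0.94. The part of transcript length in the differences was not tested further.

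Genes of the machinery that inserts carriers into the inner membrane had ratios on both sides of 1. Of 13 import genes compared, 5 were at least 2-fold lower at 300 µM and 0 higher, against 29.8% and 6.09% of all genes. Their median was 0.06, and after centring 4 were lower, against 22.3% of all genes. Timm29, a subunit of the carrier insertase, stood at 3.07 FPKM at 300 µM, against 19.2 FPKM at 100 µM, and Tomm70a, the outer membrane receptor for carrier precursors, at 12.7 FPKM at 300 µM, against 54.2 FPKM at 100 µM. The other 3 lower genes, named after their values were seen, encode small chaperones of the intermembrane space: Timm9 had a log2 ratio of -1.54, Timm10 of -1.38 and Timm8a1 of -1.27. Related genes lay on the other side, Timm13 at 0.67 and Timm10b at 0.62.

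ATP synthase, which works with the ADP/ATP and phosphate carriers, had genes with positive log2 ratios below 1. All 16 genes listed for ATP synthase, which include the inhibitor gene Atpif1, had positive log2 ratios, from 0.20 to 0.99, with a median of 0.73. Of these, 0 were beyond 2-fold (10 after centring, against 14.5% of all genes). Each averaged more than 50 FPKM, and 1090 of all 1560 genes at that level had positive log2 ratios, with a median of 0.35. The 3 genes of the outer membrane channel VDAC had log2 ratios of 0.13 to 0.39. Carrier-family proteins with other symbols included Mtch1, at 319 FPKM at 300 µM, against 220 FPKM at 100 µM, and Mtch2, at 45.6 FPKM at 300 µM, against 36.01 FPKM at 100 µM, whereas the uncoupling proteins Ucp1, Ucp2 and Ucp3 stayed at or below 0.10 FPKM. Of 4 malate-aspartate shuttle enzymes 0 passed 2-fold, with Got1 lowest at -0.93 and Mdh1 highest at 0.73, which passes 2-fold after centring (1.03). Of 4 carnitine shuttle enzymes compared 1 was lower (29.8% of all genes), Cpt2, at 1.97 FPKM at 300 µM, against 11.8 FPKM at 100 µM.

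**Figure D5:**
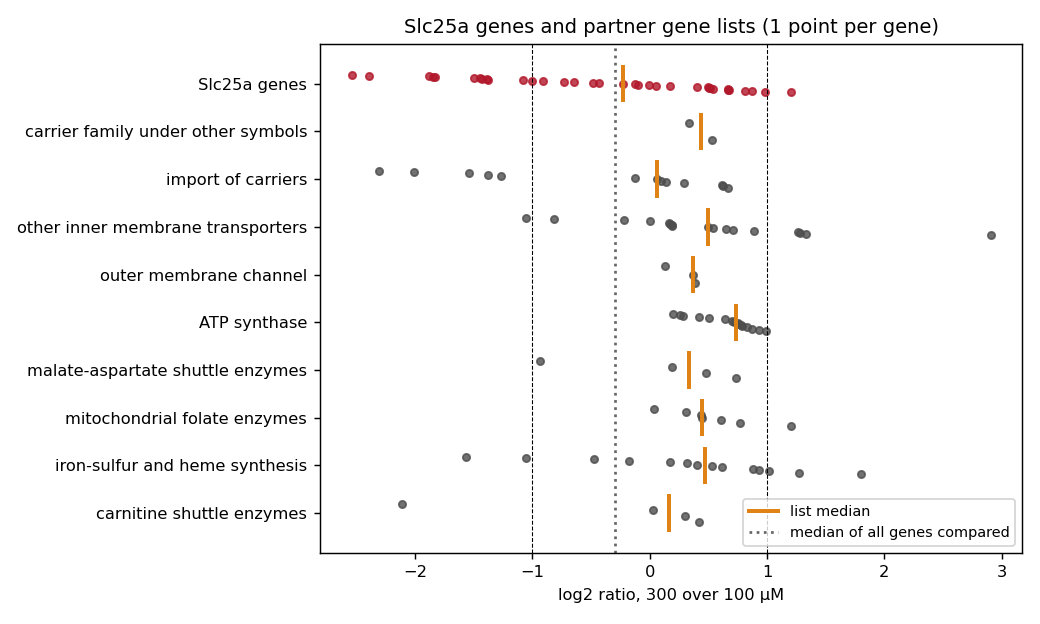
Log2 ratios of the Slc25a genes (red) and of 9 lists of other genes of mitochondrial transport and metabolism (grey, 1 point per gene compared). List medians are in orange and the median of all genes compared is a dotted line. The ATP synthase genes lie between 0.20 and 0.99, whereas the carriers and the import genes spread from below -2 to above 0.6, with Slc25a44 lowest at -2.54.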

How the data were processed

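RNA sequencing of 2 libraries, 1 per dose, was deposited by the authors as gene-level FPKM, with 2 decimals; the unit is named per the file headers. The submitters' processing notes list Bowtie2 and RSEM without versions. Genome build and annotation: not given in the sources used here. Symbols were matched by NCBI gene number, 17179 in RefSeq (GRCm38.p6) and 7 more in GENCODE M21, and 29 genes stayed unnamed. Members, substrate groups and the lists of other genes were chosen with earlier results of these data known. All members enter the counts, medians and sums, but 1 of those compared and some other genes are not reported here by name. Other genes averaging 5 FPKM or more are named by the 2 largest ratios per list and direction; marker genes and the rest of counts of 5 or fewer were named after their values were seen. All 121 list entries were looked up, and 2 were unmatched.

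The log2 ratio used a pseudocount of 1 FPKM, which understates changes of low genes, and was computed on the whole table, for genes whose mean reached 1 FPKM. Depth came from the steps of low FPKM times transcript length among genes with 1 transcript: 59.6% of 57 values at 300 µM and 61.0% of 77 at 100 µM lay within 0.12 reads of a whole number, so the depth is a rough estimate. Reads per gene are FPKM times transcript length over that step, and intervals are exact (Clopper-Pearson) for 2 counts. Lengths and 3' UTRs are those of 1 representative GENCODE transcript. Words of 50 bases were sought in all other genes' transcripts. Trends with length and GC content were removed by a quadratic fit. Log2 ratios, the level filter, 2-fold calls, the TMM scaling factor and the trend removal were run on simulated data. The depth estimate, the intervals, the word search and the motif search were not. Tools were Python 3.11.15 with scipy 1.17.1, numpy 2.4.6, matplotlib 3.10.9 and pandas 2.3.3.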

Additional observations from a re-analysis of the deposited data

How the results depend on the processing

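With 1 library per dose the values carry no replicate error, and no paired analysis was possible because each dose has a single library; leaving out a library was likewise not possible. The main limit is the scale: centring on the median gene moves log2 ratios by 0.30 upward, and the log2 ratio of FPKM sums, removed at equal sums, is 0.38. The carrier counts of 1 higher and 12 lower became 3 higher with a pseudocount of 0.1, and 0 higher and 5 lower with a pseudocount of 5. They became 4 higher after centring, 6 higher with the TMM factor and 0 higher at equal sums, where 15 were lower. Shares of all genes higher were 14.5% after centring, 16.7% with the TMM factor and 2.76% at equal sums, where 40.5% were lower. Such shares were not computed with the other pseudocounts, so those carrier counts have no background beside them. With the filter raised to 10 FPKM, 4 carriers of 50 FPKM or more and 12 of 10 to 50 FPKM remained. Of these, 3 were lower, all in the class of 10 to 50 FPKM, where 27.2% of all genes were lower. At a size of 1.5-fold 7 of the 35 carriers were higher and 15 lower, and at 3-fold 0 were higher and 5 lower. Shares of all genes at these sizes were not computed. The family median of -0.23 was -0.12 with a pseudocount of 5, 0.068 after centring, 0.073 with the TMM factor, -0.57 at equal sums, -0.46 with the length and GC trend removed, -0.057 with no filter and 0.45 where the mean reached 10 FPKM. The summed ratio of 1.13 was 0.874 at equal sums and 1.20 without Slc25a3.

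Signs turned for 6 carriers with small ratios. After centring and with the TMM factor these were Slc25a3 (0.30 and 0.38), Slc25a24 (0.20 and 0.27), Slc25a40 (0.17 and 0.20) and Slc25a45 (0.068 and 0.073), and Slc25a24 was also positive with the trend removed (0.072). At equal sums and with the trend removed they were Slc25a5 (-0.20 and -0.46) and Slc25a43 (-0.18 and -0.69). The pseudocount of 5 brought 8 carriers within 2-fold.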

Other observations

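Other transporters of the inner membrane, outside the Slc25 family, included genes at least 2-fold higher at 300 µM. Of 17 compared, 4 were higher by that size and 1 was lower, against 6.09% and 29.8% of all genes, with a median log2 ratio of 0.50. After centring on the median gene 6 were higher and 0 lower, against 14.5% and 22.3% of all genes. Sfxn4, a sideroflexin, stood at 14.5 FPKM at 300 µM against 1.07 FPKM at 100 µM. The calcium uniporter gene Mcu stood at 12.6 FPKM at 300 µM against 4.40 FPKM at 100 µM. Also named, after their values were seen, are the ABC transporter Abcb8 (log2 ratio 1.28), which was higher, and the sodium-calcium exchanger Slc8b1 (-1.05), which was lower but not after centring (-0.75). Whether these transporters differ from the carriers was not tested.

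Carriers were also set beside all genes of like level. The 4 carriers with a mean of at least 50 FPKM had a median log2 ratio of 0.34, against 0.35 for all genes of that level. The 12 of 10 to 50 FPKM had 0.45, against -0.26, the 7 of 5 to 10 FPKM had -1.01, against -0.79, and the 12 of 1 to 5 FPKM had -0.46, against -0.61. The carrier medians were thus positive in both classes above 10 FPKM and negative in both below, without a steady order of level. The Spearman correlation of log2 ratio and mean FPKM was 0.34 across the 35 carriers and 0.25 across all 10123 genes compared. The part of level in the ratios was not tested.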
